A study of Mus musculus with 2 samples.

Results

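The effector cytokines of helper T cells were measured as 10 genes, Il2, Il3, Il4, Il5, Il10, Il13, Il16, Il17a, Ifng and Csf2. Their members were found by symbol, taking each probe set that the platform annotation gives to one of these symbols alone. This gave 13 of the 45037 probe sets that are no controls, and 10 of 18193 named genes. The cells were mouse 5cc7 T cell blasts, taken on day 5 after stimulation in culture with MCC peptide. A 5cc7 cell carries a T cell receptor for a peptide of moth cytochrome c, and a blast is an activated lymphocyte that has grown and entered division. The labels name no second stimulation before the RNA was made, so the transcripts are read here as those of cells without restimulation. Polyadenylated RNA was labelled with biotin and hybridised to 2 Affymetrix mouse 430 2.0 arrays, set 1 and set 2, which form 1 group with no control. The mouse strain, the presenting cells, any polarising cytokine and the number of mice are not stated in the labels. The labels do not say that the arrays hold separate cultures, so their spread may be technical.

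Effector cytokines are the secreted proteins by which helper T cells act on other cells, and each helper lineage is known by its own set. Interferon gamma marks Th1 cells, interleukins 4, 5 and 13 mark Th2 cells and interleukin 17A marks Th17 cells, while interleukins 2, 3 and 10 and GM-CSF are made by several lineages. Most of these genes are read briefly after the T cell receptor signals through NFAT, AP-1 and NF-kappaB factors, and many of their transcripts carry AU-rich elements and decay fast. Interleukin 16 differs in kind. It is made in resting lymphocytes as a long precursor with PDZ domains, from which a caspase releases the secreted end.

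The stretches of 250 bases before the annotated start of transcription are shown for 6 of the genes, so that the short motifs of inducible cytokine promoters can be seen beside the array values of their transcripts. The RefSeq table, of build GRCm38.p6, held 12 such stretches for 9 of the 10 genes, with 3 starts for Il16 and 2 for Il4. Il10 was not matched there. For Il4 and Il16 the start farthest upstream is printed, and whether the array values belong to that start was not tested. Capitals mark GGAAA on either strand (TTTCC on the printed one), which is the core bound by NFAT factors, TATAAA on the printed strand, which is a TATA box, and TGANTCA on either strand, which is an AP-1 type motif. None of these motifs overlapped another in the printed stretches. Each runs 5' to 3' towards the gene.
Il2, chr3:37125955-37126204, strand -: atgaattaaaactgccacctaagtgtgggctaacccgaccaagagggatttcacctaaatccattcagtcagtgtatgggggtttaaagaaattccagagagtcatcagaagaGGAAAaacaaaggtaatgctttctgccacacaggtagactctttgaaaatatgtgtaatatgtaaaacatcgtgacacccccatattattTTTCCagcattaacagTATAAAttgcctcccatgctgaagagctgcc
Ifng, chr10:118440796-118441045, strand +: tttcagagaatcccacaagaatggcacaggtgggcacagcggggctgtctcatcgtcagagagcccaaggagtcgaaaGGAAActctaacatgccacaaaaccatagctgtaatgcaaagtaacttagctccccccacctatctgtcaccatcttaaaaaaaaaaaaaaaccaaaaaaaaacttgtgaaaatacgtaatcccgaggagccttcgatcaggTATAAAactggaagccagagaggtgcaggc
Il13, chr11:53634703-53634952, strand -: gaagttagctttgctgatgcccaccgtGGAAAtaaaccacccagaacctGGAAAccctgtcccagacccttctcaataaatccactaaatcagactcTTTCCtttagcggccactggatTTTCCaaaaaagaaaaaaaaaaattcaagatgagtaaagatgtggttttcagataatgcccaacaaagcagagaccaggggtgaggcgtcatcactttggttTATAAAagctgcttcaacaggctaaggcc
Il4, chr11:53618666-53618915, strand -: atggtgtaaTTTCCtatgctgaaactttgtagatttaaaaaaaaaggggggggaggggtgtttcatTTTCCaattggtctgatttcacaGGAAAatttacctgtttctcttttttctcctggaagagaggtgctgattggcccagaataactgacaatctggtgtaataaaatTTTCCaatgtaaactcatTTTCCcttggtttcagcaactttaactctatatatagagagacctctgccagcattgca
Il17a, chr1:20730655-20730904, strand +: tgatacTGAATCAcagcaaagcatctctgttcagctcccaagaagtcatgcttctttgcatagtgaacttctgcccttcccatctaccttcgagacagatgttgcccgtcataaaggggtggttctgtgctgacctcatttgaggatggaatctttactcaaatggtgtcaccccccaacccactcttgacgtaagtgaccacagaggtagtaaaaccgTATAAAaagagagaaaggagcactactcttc
Il16, chr7:83735540-83735789, strand -: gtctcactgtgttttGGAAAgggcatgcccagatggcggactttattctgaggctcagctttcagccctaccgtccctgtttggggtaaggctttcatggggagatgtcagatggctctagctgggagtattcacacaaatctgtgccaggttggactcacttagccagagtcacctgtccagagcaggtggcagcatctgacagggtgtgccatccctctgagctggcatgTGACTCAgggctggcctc

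GGAAA was found before 8 of the 9 genes and in 10 of the 12 stretches, against 55.6% of all 32851 stretches of the same length in the table. The Il4 stretch held 5 copies and the Il13 stretch 4. The Il17a stretch held 0. TATAAA was found before 4 of the 9 genes, Il2, Ifng, Il13 and Il17a, against 7.59% of all stretches. Its first base lay 31 bases before the start for Il2 and Il17a, 30 for Ifng and 29 for Il13, the usual place of a TATA box. None of the 3 stretches of Il16 held it. TGANTCA was found in the Il17a stretch and in 1 stretch of Il16, against 6.75% of all. The 12 stretches held between 0 and 7 CpG dinucleotides, where the median of all stretches was 6. A match is a description of these letters and not a bound site.

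A transcript counted as above background when its intensity exceeded a bound on both arrays. As bound served, for each array, the 95th percentile of 58 probe sets for 43 genes of liver, eye, pancreas and kidney, which T cells are not known for. It was 54.44 on set 1 and 57.03 on set 2. All intensities are the deposited values on a linear scale. Because the probes differ, levels of different probe sets are not read as relative amounts of transcript. Values of the brightest off-tissue genes are set beside those of members only as a gauge of how high such probe sets can read. Detection at the level of the bound is weak. The kidney gene Kap itself read 127.4 on set 1 and 129.6 on set 2, and the pituitary hormone precursor gene Pomc, of a second off-tissue list, read 107.3 and 117.8. The brightest genes of that second list were the myelin gene Mbp, at 471.4 and 515.6 with 2 of 8 probe sets above the bound, and the thyroid gene Tg, at 444.8 and 418.3. Whether the T cells themselves make any of these transcripts was not tested. The second bound, used further below, is drawn from the list that holds Mbp and Tg.

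Of the 10 effector cytokine genes 2 were above background, Il16 and Il17a, and 8 were not. Among all named genes 47.1% were above background, and among the named genes with exactly 1 probe set, as 9 of the members have, 31.7% were. By probe set 3 of 13 were above background, against 37.7% of all probe sets. The other 8 genes read between 2 and 40.4 over both arrays, and 4 of them, Il3, Il5, Il13 and Csf2, had a mean under 10. In a bulk sample, fewer producing cells and less RNA per cell cannot be told apart. An intensity below the bound means only that the transcript was not detectable on these arrays.

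**Figure D1:**
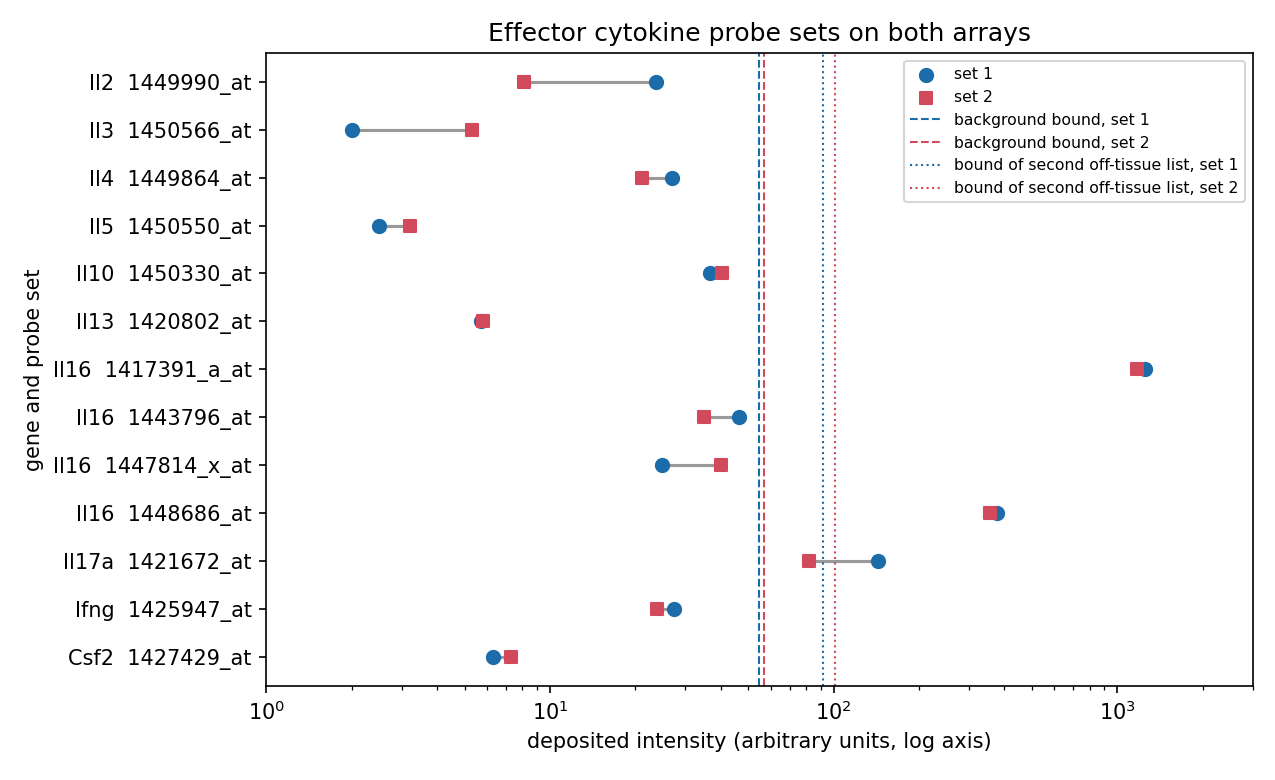
Deposited intensity (log axis) of each of the 13 effector cytokine probe sets on set 1 (circles) and set 2 (squares), with the background bounds as dashed lines and the bounds of a second off-tissue list as dotted lines. The probe sets 1417391_a_at and 1448686_at of Il16 lie right of all lines on both arrays, Il17a lies between 81.8 and 143, and the other probe sets lie left of the dashed lines.

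Il16 encodes the precursor of interleukin 16, a ligand of CD4 that attracts CD4+ cells. Its probe set 1417391_a_at read 1254.6 on set 1 and 1176.8 on set 2, a mean of 1216 ± 55.0 (SD, n = 2). These values were 23.0 and 20.6 times the bounds. A second probe set, 1448686_at, read 378.3 and 356.6, a mean of 367 ± 15.3 (SD, n = 2). Both arrays were therefore high for these probe sets and close to each other. The remaining probe sets of the gene were low on both arrays. One of them, 1443796_at, read 46.3 and 35.0, and the other, 1447814_x_at, read 24.9 and 40.2. The annotation ties the 2 bright probe sets to the same sequence record and ties neither low one to it. The values of 1448686_at were lower than those of Mbp and Tg of the second off-tissue list, and the values of 1417391_a_at were higher. The detection of Il16 thus rests on 2 of 4 probe sets. With the median over the 4 probe sets as its level, Il16 stood at 204 and was above background. That median lies midway between the bright 1448686_at and the low 1443796_at, so it is no separate support. Which of the 3 RefSeq starts the bright probe sets read was not tested.

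Il17a encodes interleukin 17A, which induces neutrophil chemokines in tissue cells. Its probe set 1421672_at read 143 on set 1 and 81.8 on set 2, a mean of 112 ± 43.3 (SD, n = 2). Set 1 was 2.63 times its bound and set 2 was 1.43 times its bound. The gene thus exceeded the bound on either array, but set 2 was lower than the values of Kap and Pomc on that array, and both arrays were lower than those of Mbp and Tg. With the bound of the second off-tissue list, of genes of other organs, which was 91.7 on set 1 and 101.42 on set 2, Il17a was no longer above background. Il16 was then the only one of the 10 genes above background, beside 36.9% of all named genes. With the bound at the 99th percentile of the first list Il17a was lost as well. Rora, which encodes a nuclear receptor of Th17 cells and is named here after its values were seen, read 650 on set 1 and 587.3 on set 2. Of its probe sets 6 of 9 were above background. The gene of its relative RORgammat was not matched to a probe set of its own. Ahr, which encodes a cofactor of Th17 cells, read 33.1 and 27.5 and was not above background.

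Il2 encodes interleukin 2, the growth factor of activated T cells. Its probe set 1449990_at read 23.6 on set 1 and 8.1 on set 2, a mean of 15.8 ± 10.96 (SD, n = 2), below the bound on both arrays. A further probe set, 1447917_x_at, is annotated to Il2 and to Ntan1, an amidase gene, and so was not counted. It read 708 and 681.5, while 1423538_at, the probe set of Ntan1 alone, read 274.4 and 233.5. Which transcript the shared probe set reads was not tested, and its signal is not assigned to Il2. The endings _x_at and _a_at are names of the manufacturer, the first for probe sets with probes that match other sequences too and the second for those shared by transcripts of a gene.

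Ifng encodes interferon gamma, the Th1 cytokine that activates macrophages. Its probe set 1425947_at read 27.4 on set 1 and 23.8 on set 2, a mean of 25.6 ± 2.55 (SD, n = 2). Both arrays were under the bound by a like margin, at 0.503 and 0.417 of it. Among listed genes for factors that act on Ifng, Tbx21, Stat4 and Runx3 were above background in the same RNA. Hlx and Eomes were not. The whole list of transcription regulators had 29 of 37 genes above background, beside 47.1% of all named genes. Tbx21, which encodes T-bet, read 188.8 and 217.9, and Stat4, which acts downstream of interleukin 12, read 1072.1 and 902.3. Runx3 read 443.2 and 415.7. Hlx, a partner of T-bet, read 3.2 and 5.2, and Eomes, a relative of T-bet, read 21.7 and 25.1. Tbx21, Runx3 and Hlx are named here after their values were seen.

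The 3 Th2 cytokine genes were all below the bound on both arrays. Il4, whose product turns naive cells towards Th2 and B cells towards IgE, read 27 on set 1 and 21.1 on set 2, a mean of 24.0 ± 4.17 (SD, n = 2). Il5, the eosinophil growth factor, read 2.5 and 3.2. Il13, which acts on epithelium and smooth muscle, read 5.7 and 5.8. These last values were at most 0.105 of the bound, so neither array gave a signal near it. Gata3 and Maf, which encode factors of Th2 cytokine transcription and are named here after their values were seen, were above background, at 281 ± 22.6 and 601 ± 90.2 (SD, n = 2).

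Il10 encodes interleukin 10, which restrains macrophages and dendritic cells and is made by several helper lineages. Its probe set 1450330_at read 36.6 on set 1 and 40.4 on set 2, a mean of 38.5 ± 2.69 (SD, n = 2). These values were 0.672 and 0.708 of the bounds. The gene passed where the median of all probe sets, 36.4 and 37.9, served as the bound. Il3 and Csf2 encode interleukin 3 and GM-CSF, growth factors of myeloid cells that share a receptor chain. Il3 read 2 and 5.3, a mean of 3.65 ± 2.33 (SD, n = 2), and Csf2 read 6.3 and 7.3, a mean of 6.8 ± 0.707 (SD, n = 2). All 4 values lay far under the bounds.

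The level of Il17a was the least alike between the arrays among the detected members. Its log2 difference, set 2 minus set 1 after centring, was -0.83. Of the 200 probe sets nearest to it in mean intensity, the middle 95% had differences from -0.50 to 0.83, so Il17a fell outside this range on the low side. Among all probe sets above background 2.73% differed by more than 1.5-fold in either direction, and 0.813% were lower on set 2 by that much, as Il17a was. The bright Il16 probe sets differed by -0.12 and -0.11, within the ranges of their own neighbours in intensity. Below the bound, Il2 at -1.57, Il3 at 1.38 and the Il16 probe set 1447814_x_at at 0.66 also differed by more than 1.5-fold. Such gaps are common there, and over all probe sets 29.2% differed that much. All 10 of the probe sets not above background lay within the middle 95% of their own neighbours in intensity.

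**Figure D2:**
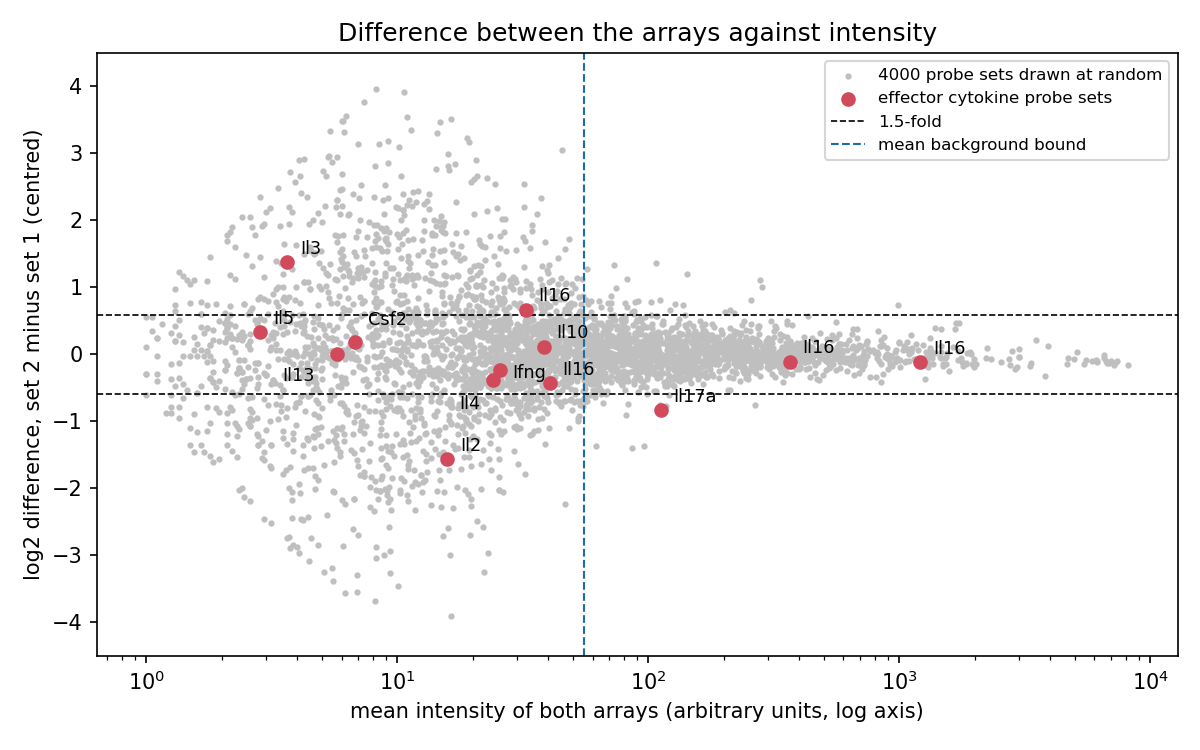
Centred log2 difference between the arrays (set 2 minus set 1) against mean intensity (log axis), for the 13 effector cytokine probe sets (labelled points) and 4000 probe sets drawn at random (grey). Horizontal lines mark 1.5-fold and the vertical line the mean bound of 55.7. Il17a at -0.83 lies below most grey points of like intensity, whereas Il2 and Il3 lie within the wide spread left of the bound.

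Several of the genes lie side by side, as the RefSeq gene order shows. On chromosome 11 Il4 and Il13 are next to each other and the DNA repair gene Rad50 stands between them and Il5, while Csf2 and Il3 form a pair of their own. Other genes named in this paragraph were chosen for their place, after their values were seen. The cytokine genes read under 30 on both arrays, but Rad50 between them read 274.5 and 291.9, with 1 of 2 probe sets above background. The kinesin gene Kif3a beside Il4 read 81.1 and 111, and Irf1, an interferon-induced transcription factor gene beside Il5, read 685.5 and 759.3. Detected and undetected transcripts thus alternate along this stretch. For the pair of Csf2 and Il3 the nearest measured gene on either side was not above background, and P4ha2 and Fnip1 farther out were, at 88.0 ± 2.33 and 425 ± 32.6 (SD, n = 2). Around Il17a on chromosome 1 the replication gene Mcm3 read 484.7 and 541.8. Near Ifng on chromosome 10 the GTPase gene Rap1b read 2787.3 and 2929.2 and the kinase gene Dyrk2 read 417.7 and 498.3. Beside Il2 on chromosome 3, Il21, the gene of a related cytokine, read 44 and 52.8 and was not above background.

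Over all members, 17 of 43 neighbours were above background (39.5%), counting the 3 nearest measured genes on either side once each. Among all named genes 47.1% were. With the bound of the second off-tissue list the count was 11 of 43, beside 36.9% of all named genes. Il16 had 1 of 6 neighbours above background and Il17a had 2 of 6, while Il4, Il5 and Il13, which share most of theirs, had 4 of 6.

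**Figure D3:**
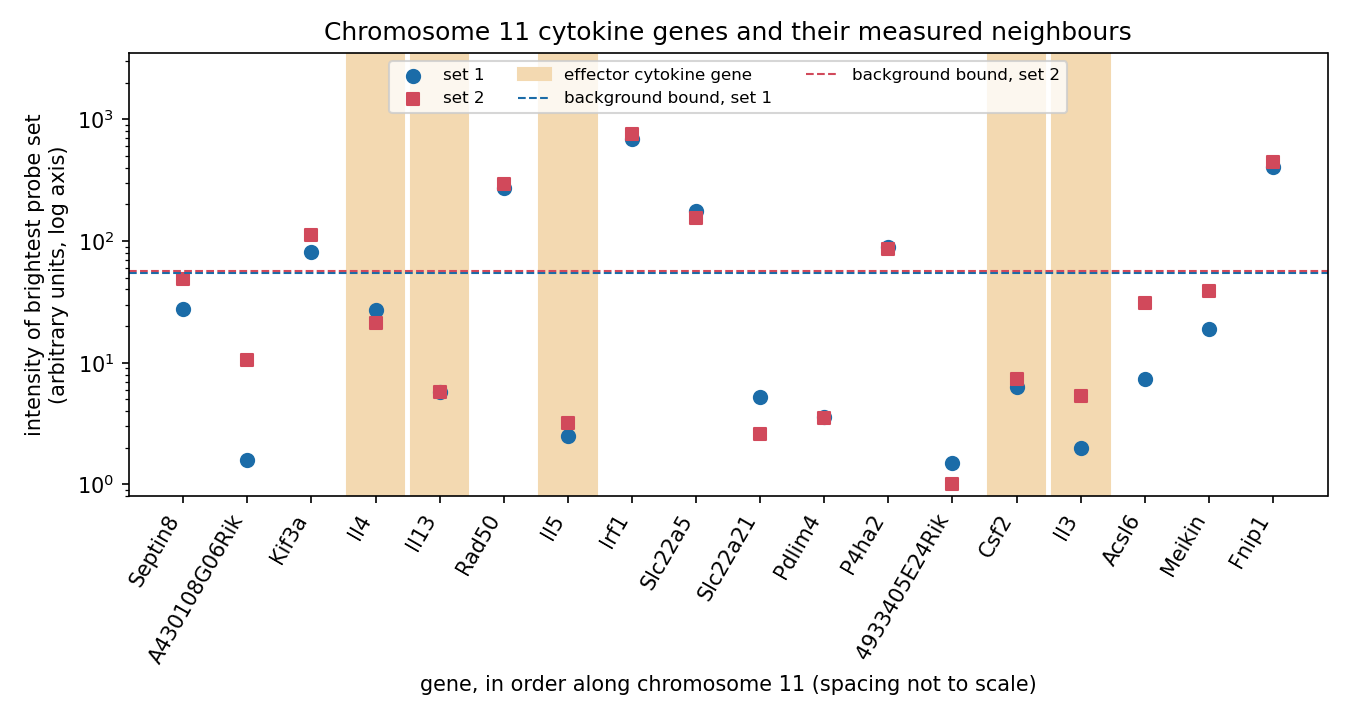
Intensity of the brightest probe set (log axis) for the cytokine genes of chromosome 11 (shaded) and their measured neighbours, in gene order, on set 1 (circles) and set 2 (squares). The 5 shaded genes lie between 2 and 27, below the dashed bounds, and Rad50 and Irf1 beside them lie between 274.5 and 759.3.

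Receptors of the same cytokines were above background for 9 of 18 measured genes, near the share of all named genes. Il2ra and Il2rb, chains of the interleukin 2 receptor, were at 437 ± 35.1 and 801 ± 25.2 (SD, n = 2). Cd4, which binds interleukin 16 and is the coreceptor of helper cells, read 1186.1 and 1051.4. Ifngr1 and Il17ra, the ligand-binding chains for interferon gamma and interleukin 17A, were at 836 ± 83.2 and 629 ± 30.6 (SD, n = 2). Receptor genes for the myeloid cytokines were low. Csf2rb, the chain shared by receptors of GM-CSF and interleukins 3 and 5, read 36.2 and 44.1, Csf2rb2 read 20.7 and 22.3 and Csf2ra read 29.2 and 36.7. Ifngr2, the second chain of the interferon gamma receptor, read 38.2 and 46.6, and Il13ra1 read 30.2 and 57.6, above the bound on set 2 alone.

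Transcription regulators of the cytokine genes were above background in 29 of 37 cases (78.4%, beside 47.1% of all named genes). Ets1, a partner of other factors at cytokine promoters, was at 3133 ± 123, Ikzf1 at 2114 ± 9.33, Bhlhe40, a factor of activated T cells, at 1628 ± 123 and the AP-1 gene Jund at 882 ± 104 (SD, n = 2). Jund was above background in 1 of 2 probe sets. The NFAT genes Nfatc1, Nfatc2 and Nfatc3, named here after their values were seen, were at 622 ± 29.5, 340.1 ± 3.04 and 561 ± 21.1 (SD, n = 2). Of their probe sets 4 of 5, 1 of 6 and 2 of 2 were above background, so the detection of Nfatc2 rests on 1 of 6. Of the Fos family genes, which form AP-1 with Jun proteins, Fos read 43.6 and 45.9, Fosb 24.4 and 26.3, and Fosl1 19.4 and 24.6, all below the bounds. Fosl2, named here after its values were seen, read 64.3 and 70.4 and was above background in 1 of 2 probe sets. With the bound of the second off-tissue list Fosl2 was no longer above background. The regulator count was then 26 of 37, beside 36.9% of all named genes. Ahr, which encodes a cofactor of Th17 cells, read 33.1 and 27.5, below the bound on both arrays.

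Genes for proteins that bind or degrade cytokine transcripts were above background in 16 of 17 cases (94.1%, beside 47.1% of all named genes). Most of them have several probe sets, of which any 1 suffices. With the median over the probe sets of a gene 15 of 17 were, beside 40% of all named genes. Zfp36l2 and Zfp36l1, which bind AU-rich elements and promote decay, were at 2345 ± 379 and 899 ± 29.1 (SD, n = 2). Elavl1 (HuR), which binds the same elements and stabilises transcripts, was at 533 ± 14.4, and Cnot7, a deadenylase gene, and Xrn1, a nuclease gene, were at 584 ± 10.1 and 411 ± 0.495 (SD, n = 2). The exception was Zc3h12a (regnase-1), an endonuclease of cytokine transcripts, which read 51 on set 1 and 43.3 on set 2.

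Other cytokine and ligand genes of T cells and myeloid cells were above background in 14 of 29 cases (48.3%), close to the share of all named genes. Ltb, which encodes lymphotoxin beta, read 3414.2 and 3468.1, and the inflammatory mediator gene Mif read 3386.3 and 2914.8. Mif was above background in 1 of 3 probe sets. Tgfb1 was at 470.2 ± 27.4, Ebi3, a chain of interleukins 27 and 35, at 434 ± 32.7 and Fasl, the ligand of a death receptor, at 329 ± 32.5 (SD, n = 2). Among those not above background, Cd40lg read 37.8 and 44.5, the chemokine gene Ccl3 read 42.5 and 38.4, Il12a read 33.4 and 40, Il15 read 19.6 and 7.1, and Csf3 read 15.2 and 7.6. The list thus held bright and undetected ligands side by side.

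**Figure D4:**
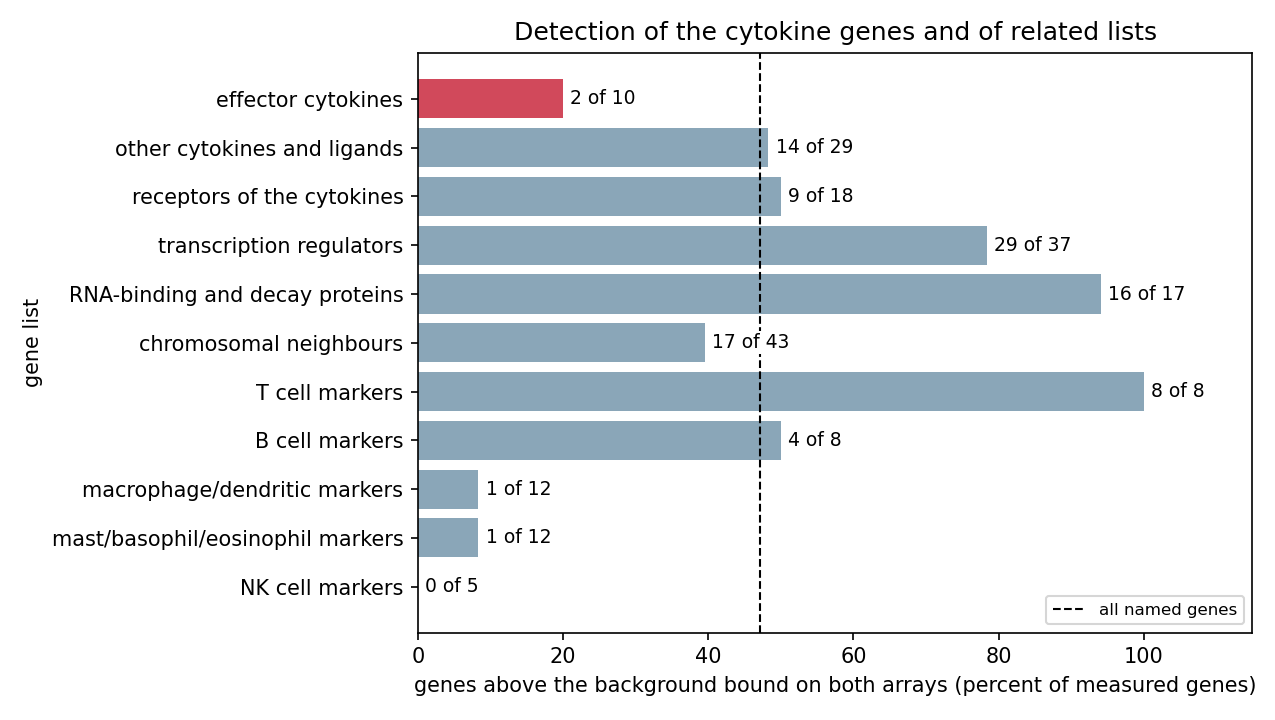
Share of measured genes above the background bound on both arrays (percent), for the effector cytokines and related gene lists, with the counts beside the bars and the share of all named genes, 47.1%, as a dashed line. The effector cytokines stand at 2 of 10, while transcription regulators stand at 29 of 37 and RNA-binding and decay proteins at 16 of 17.

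The labelled cell type was checked by its markers. All 8 measured T cell genes exceeded the bound on both arrays, with the receptor chain gene Cd3d at 4671 ± 299 and Thy1 at 3449 ± 139 (SD, n = 2). Some of the cytokines are also made by other cells. Among all named genes 47.1% exceeded the bound on both arrays. In the list for mast cells, basophils and eosinophils 1 of 12 genes did, Kit at 494 ± 101 (SD, n = 2). Cpa3 of that list read 51.2 and 45. Cma1 read 46.8 and 60.3, above the bound on set 2 alone. The eosinophil gene Epx read 6.7 and 2.5. The basophil protease gene Mcpt8 and the eosinophil gene Prg2, named here after their values were seen, read 5.8 and 3.7, and 3.9 and 4.1. Of the NK cell genes 0 of 5 did, with Ncr1 at 3.8 and 22.7. Macrophage and dendritic cell genes were in 1 of 12, Csf1r at 57.3 and 146.7, with Adgre1 at 39.7 and 76.6 and C1qa at 2.7 and 2.1. On set 2 alone that count was 3, and that of the mast cell, basophil and eosinophil list was 2. B cell genes were in 4 of 8, near the share of all named genes. These were Ms4a1 at 377 ± 17.4, Cd79b at 165 ± 1.20, Cd79a at 108 ± 14.1 and Blk at 75.4 ± 16.7 (SD, n = 2). Cr2, Ebf1, Fcer2a and Pax5 were not above background. With the second bound 2 of 8 B cell genes were, Ms4a1 and Cd79b, beside 36.9% of all named genes.

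Beside the lower Il17a on set 2, the summed intensity of the T cell list was 17884.2 on set 1 and 17122.2 on set 2, and that of the B cell list was 913.9 and 895.3. The sums of the macrophage and dendritic list were 347.6 and 535.7, in which Csf1r went from 57.3 to 146.7. In that list and in the next, 11 of 12 genes were not above background. For the mast cell, basophil and eosinophil list the sums were 641.6 and 773.8, and Kit alone, at 422.8 and 565, differed by more than the sum did. For the NK list they were 44.5 and 59.4, with every gene below the bound and Ncr1 alone, at 3.8 and 22.7, differed by more than the sum did. Whether such other cells were present, and any part of them in the Il17a value, was not tested.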

How the data were processed

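The deposited intensity values, on a linear scale with 1 value per probe set and array, were used as the authors gave them, and their scale was judged from their range. How the authors corrected background, summarised probes and scaled the arrays is not stated in the labels or the file, and detection calls were not used. The 64 manufacturer's controls of 45101 probe sets were left out. Names came from GEO's platform annotation, which gives 34945 probe sets 1 symbol, 932 several and lists no gene for 9160, and gene order and sequences from RefSeq, GRCm38.p6. A gene was above background when any of its probe sets exceeded the bound on both arrays, and its brightest probe set by mean gave its level. Intensities under 1 were set to 1 before log2, and differences were centred on their median over probe sets above background (0.03). The calculations were tested on simulated data. Python 3.11.15, numpy 2.4.6, pandas 2.3.3 and matplotlib 3.10.9 were used. The members and gene lists were chosen with earlier results of these data known. From each list the rule names up to 5 of the brightest genes above background and up to 5 others in alphabetical order, and all members. Since the 2 arrays form 1 group, nothing was tested between conditions and no gene of like pattern was sought. Having 2 arrays limits the precision. Listed genes without a probe set of their own were not analysed here.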

Additional observations from a re-analysis of the deposited data

How the results depend on the processing

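The count of 2 cytokine genes above background fell to 1, with Il17a lost, when the bound came from the second off-tissue list or from the 99th percentile of the first. Of all named genes 36.9% and 34.5% passed these bounds. The cytokine count rose to 3, with Il10 added, at the median of all probe sets, which 55.4% of all named genes passed. It was 2 under the other alternatives, either array alone included, beside 40% to 51.7% of all named genes. The count of 3 probe sets stayed within 1.5-fold under its 8 alternatives. With those 2 stricter bounds the B cell count was 2, the macrophage and dendritic count 0 and the count of neighbours 11 (an alternative chosen for the neighbours after seeing the data). At the 90th percentile, passed by 51.7% of all named genes, the macrophage and dendritic count and the mast cell, basophil and eosinophil count were 2 each. At the median of all probe sets they were 5 and 3. On single arrays they ranged from 1 to 3 and from 1 to 2, beside 49.5% of all named genes on either array. The macrophage and dendritic count was 2 when the mean of both arrays was set against the mean bound, beside 49.3% of all named genes. The level of Il16 was 204 as the median over its probe sets. With a floor of 32 the log2 difference of Il2 became -0.026, and that of Il3 became -0.026 with a floor of 16 or 32, since both values then lie on the floor and only the centring remains. Quantile normalization left the log2 difference of Il17a at -0.86. No paired analysis was possible because the arrays form 1 group. Signal over background limits the undetected genes, whose values lie where the spread between the arrays is wide.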
